A study of Rattus norvegicus with 32 samples.

Results

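The proteins of the cytosolic ribosome were examined in rat liver after inhaled ozone, as the messenger RNA of 42 genes. The genes were taken by name: every probe set assigned to a single gene whose symbol has the form Rpl or Rps with a number, together with Rplp0 and Rpsa, and without the S6 kinases. They are 42 of 13438 genes on the array and lie on 49 probe sets. The brightest probe set stood for each gene. Of these genes, 24 of the large subunit, 10 of the small subunit, the stalk protein Rplp0 and 3 paralogs were bright enough to be tested, 38 in all of 11626 genes tested. The single-gene probe sets of Rpl30, Rps13, Rpl3l and Rpl26l1 fell below the filter on dim probe sets. Rpl30 and Rps13 also stand on brighter probe sets shared with copies. Further ribosomal protein symbols stand on 41 probe sets that carry several genes, mostly because near-identical copies exist. These were kept apart and are described once below.

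Male Wistar Kyoto rats, 10 weeks old and 250 to 300 g, breathed ozone at 1 ppm or filtered air for 6 h per day. Livers taken as the day 1 exposure ended gave 6 arrays for ozone and 6 for air. Livers taken as the day 2 exposure ended gave 5 and 5, and so did livers taken 18 h later. Each array measured total liver RNA with Affymetrix rat probe sets, and intensities are given in the deposited units. Nothing in the labels ties each array to its own animal, so p-values measure the spread between these samples, which may be technical, and the number of arrays limits their precision. In whole liver, fewer cells of a type and less RNA per cell cannot be told apart.

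A cytosolic ribosome holds one copy of almost every one of these proteins, wrapped around ribosomal RNA, in a small subunit that reads the message and a large subunit that joins amino acids. Hepatocytes secrete most plasma proteins and are rich in ribosomes. In mammals the messages of ribosomal proteins begin with a cytidine followed by a run of pyrimidines, the 5′ terminal oligopyrimidine (TOP) sequence. Through it the kinase mTORC1 controls their translation and stability as a group. New subunits are assembled in the nucleolus with the help of many factors that do not remain in the finished ribosome.

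RefSeq promoter sequence (build GRCr8) was found for 35 of the 42 members, and part of them carry that feature at the annotated start. Windows are shown for 4 that do (Rpl19, Rpl35a, Rplp0 and Rps14) and for 6 others that passed a test below. Rpl7 also passed one, and the table holds no entry for it. Each window below runs from 30 bases before the annotated transcription start to 20 bases from it, 5′ to 3′ on the gene's strand, and the capitals mark the longest run of C and T within 20 bases of the start.
Rpl19 (chr10:83519034-83519083, plus strand): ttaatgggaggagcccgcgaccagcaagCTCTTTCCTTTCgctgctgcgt
Rpl35a (chr11:81235002-81235051, minus strand): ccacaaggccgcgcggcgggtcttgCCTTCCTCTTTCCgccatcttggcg
Rplp0 (chr12:46718371-46718420, minus strand): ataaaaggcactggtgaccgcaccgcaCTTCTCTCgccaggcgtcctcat
Rps14 (chr18:56498230-56498279, plus strand): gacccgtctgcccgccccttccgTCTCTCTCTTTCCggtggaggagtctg
Rps2 (chr10:14251818-14251867, plus strand): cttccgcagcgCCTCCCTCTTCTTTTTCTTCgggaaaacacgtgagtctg
Rps3 (chr1:163195757-163195806, minus strand): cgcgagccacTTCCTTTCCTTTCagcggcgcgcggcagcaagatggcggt
Rps6 (chr5:106420521-106420570, minus strand): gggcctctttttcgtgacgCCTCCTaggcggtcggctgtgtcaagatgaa
Rpl11 (chr5:153560783-153560832, minus strand): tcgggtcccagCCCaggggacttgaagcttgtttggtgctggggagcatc
Rpl3 (chr7:113507971-113508020, minus strand): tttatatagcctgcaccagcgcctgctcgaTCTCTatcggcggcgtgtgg
Rpl7l1 (chr9:21695688-21695737, plus strand): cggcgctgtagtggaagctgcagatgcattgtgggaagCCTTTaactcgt

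A C at the annotated start followed by at least 4 pyrimidines stood in 10 of the 35 members (28.6%), against 2.63% of the 33469 promoters in the table. These were Rpl14, Rpl19, Rpl28, Rpl34, Rpl35, Rpl35a, Rpl39, Rplp0, Rps14 and Rps15. A run of 8 or more pyrimidines within 20 bases of the start was found in 24 members (68.6%), against 15.5% of all promoters. The longest such run had a median length of 10 bases in members and 5 in all promoters. The motif CTTTCC, searched on both strands of the 300 bases from 250 before to 50 after the start and able to overlap the tracts, was present in 18 members (51.4%) and in 26.4% of all promoters. None of the 5 paralogs had C and 4 pyrimidines at its annotated start. An annotated start can lie some bases from the start used in liver, which was not measured here. In Rps3 the long tract ends a few bases before the annotated start.

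The livers carried their own markers: the 5 hepatocyte markers on the array averaged between 12.5 and 13.7 on the log2 scale. Pairs of arrays correlated between 0.965 and 0.997. Over all genes tested, 24 of 32 arrays correlated best with the mean of their own group and 8 with that of another group. Of these 8, the air arrays replicate 5 of day 2 and replicate 1 at 18 h were closest to an ozone group. Probes for nonspecific binding were at 54.3 units on day 1 air replicate 2 and 66.1 on day 1 ozone replicate 3, and at 85.2 to 92.0 on the rest. The ratio of 3′ to 5′ actin signal, a measure of RNA integrity, was 3.50 on ozone replicate 5 at 18 h and at most 2.89 elsewhere. For ribosomal protein genes, values without these arrays are given where they change a call or move a value that a statement rests on. No such values are given for single genes of the pathway lists or for markers. Whether their calls rest on single arrays was not tested.

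At the end of the first exposure, the ribosomal protein genes lay slightly lower in ozone livers than in air livers, with a few exceptions. The difference was negative for 32 of 38 members with a median of −0.067 on the log2 scale, a change of −4.55%, against a negative difference in 48.3% of all genes and a median of 0.0045. With limma, 2 members rose (Rpl7l1 and Rpl3) and 1 fell (Rps2) at an adjusted p under 0.05. Of all genes tested, 29.5% passed (13.1% higher and 16.4% lower), so the members passed no more often than genes in general. Another 416 genes with a mean log2 level of 11 or more had a median of −0.067, with 66.1% of them negative, against 84.2% of the members, and 194 passed. No test was made between these sets. By subunit, 21 of 24 large-subunit genes and 9 of 10 small-subunit genes had negative differences, with medians of −0.070 and −0.066.

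**Figure D1:**
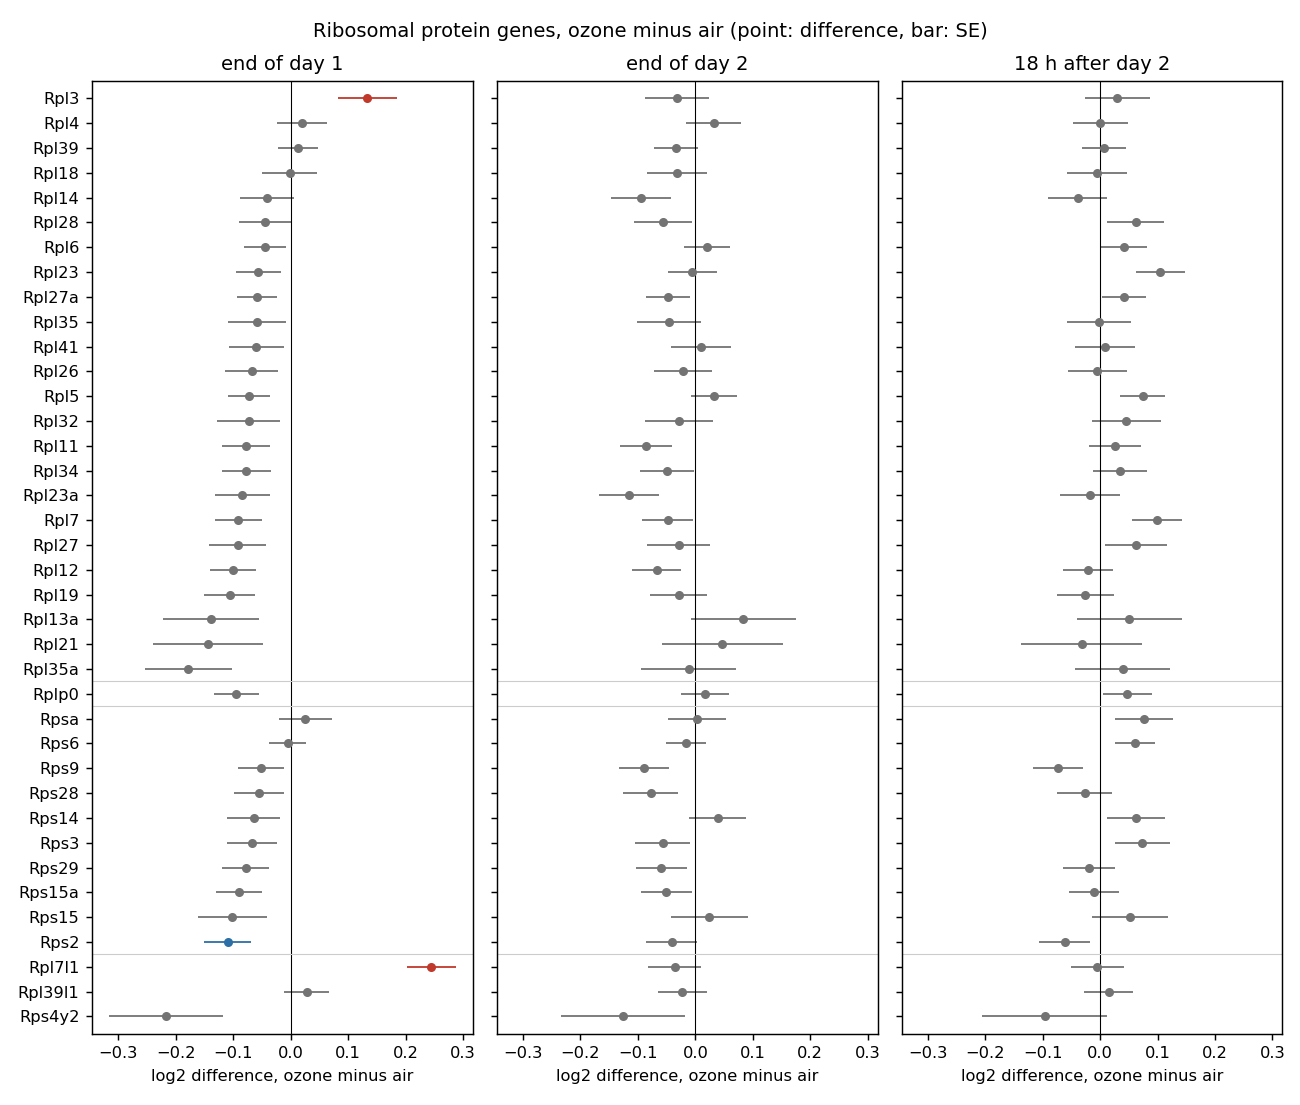
Log2 difference, ozone minus air, of the 38 ribosomal protein genes tested (rows) at the 3 harvest times (panels); points are differences, bars are standard errors, red and blue points passed an adjusted p of 0.05 as higher or lower. On day 1 most points lie left of 0 while Rpl7l1 and Rpl3 lie right of it, and on day 2 and at 18 h no point is coloured.

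Rpl7l1 gave the clearest difference of the set. It is a paralog of Rpl7 that is known in human cells from early precursors of the large subunit. Its intensity was 409 to 480 units (median 414) on the 6 ozone arrays of day 1 and 337 to 393 (median 352) on the 6 air arrays. The groups did not overlap, and all 6 ozone values lay above the air mean. The difference was 0.25 ± 0.042 (SE, n = 6 and 6; limma adjusted p = 4.35e-05), an increase of 18.5%. A second, dimmer probe set of the gene gave 0.087 ± 0.045 (limma adjusted p = 0.176 with every probe set tested singly), so the 2 probe sets differ on the call though not on the sign. Its parent gene Rpl7 was at 2858 to 3436 units (median 3226) in ozone livers and 3333 to 3554 (median 3411) in air livers, with 5 of 6 ozone values below the air mean (−0.091 ± 0.040, adjusted p = 0.0924). It passed only without ozone replicate 5 among the fits without 1 array (−0.11, adjusted p = 0.0458). Over 13 alternative settings the Rpl7 difference ran from −0.11 to −0.010, with a limma adjusted p from 0.0376 to 0.861.

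Rpl3 encodes a large-subunit protein that reaches towards the peptidyl transferase centre, where peptide bonds form. Its intensity was 2751 to 3435 units (median 3117) in ozone livers and 2655 to 3053 (median 2827) in air livers of day 1. Ozone values were mostly higher, with 5 of 6 above the air mean, but the groups overlapped. The difference was 0.13 ± 0.051 (limma adjusted p = 0.0499). A second probe set of Rpl3 gave 0.12 ± 0.059 (adjusted p = 0.156 with every probe set tested singly). The call was lost in 8 of 12 fits that each left out 1 array (those without air replicates 2, 4, 5 and 6 or ozone replicates 3, 4, 5 and 6), with an adjusted p up to 0.142, and without the 2 arrays of low nonspecific signal (0.086, adjusted p = 0.277).

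Rps2, a small-subunit protein at the channel through which the message enters, was the only member to fall on day 1. Its intensity was 3134 to 3358 units (median 3282) in ozone livers and 3481 to 3636 (median 3498) in air livers, and the groups did not overlap. The difference was −0.11 ± 0.041 (limma adjusted p = 0.0418), a change of −7.33%. The difference stayed negative when single arrays were left out (−0.12 to −0.098), but the adjusted p passed 0.05 in 11 of those 12 fits, all but the one without ozone replicate 1, with values up to 0.0917. The call was also lost with quantile normalisation (−0.074, adjusted p = 0.0663) and without the 2 arrays of low nonspecific signal (−0.12, adjusted p = 0.0680). RefSeq lists 34 pseudogenes named after Rps2, and a probe set shared by Rps2 and copies of it gave −0.074 ± 0.037 (adjusted p = 0.165 with every probe set tested singly).

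Rplp0, the base of the stalk to which elongation factors bind, had 3030.0 to 3259 units (median 3035) in ozone livers and 3138 to 3487 (median 3292) in air livers of day 1. All 6 ozone values lay below the air mean, the groups overlapped, and the difference of −0.094 ± 0.039 missed the threshold (limma adjusted p = 0.0641). The adjusted p was under 0.05 without air replicate 2 (−0.11, adjusted p = 0.0424) and without ozone replicate 3 (−0.11, adjusted p = 0.0399), the arrays of low nonspecific signal. Rps6, the small-subunit protein that S6 kinases phosphorylate, lay at 3432 to 3840 units (median 3656) in ozone livers and 3497 to 3807 (median 3622) in air livers (−0.0050 ± 0.032, adjusted p = 0.929). Rpsa, also known as a precursor of a laminin receptor, differed by 0.025 ± 0.046 (adjusted p = 0.724). The largest decreases by size, Rps4y2 (−0.22 ± 0.099) and Rpl35a (−0.18 ± 0.076), belonged to genes with wide spreads and missed the threshold (adjusted p = 0.0993 and 0.0762). These last genes were picked out after their values were seen. The Rps4y2 difference passed without air replicate 1 (−0.28, adjusted p = 0.0302).

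Some markers of other liver cells also passed on day 1, where 16.4% of all genes fell and 13.1% rose. Of 5 endothelial markers, Stab2 (−0.20 ± 0.063) and Tek (−0.17 ± 0.050) fell, and their list averaged 8.55 to 8.88 in ozone livers and 8.67 to 8.97 in air livers on the log2 scale. Among the remaining lists, 1 of 3 neutrophil and monocyte markers (Ly6c), 1 of 7 stellate cell markers (Lrat) and 1 of 4 cholangiocyte markers (Epcam) fell. In the hepatocyte, Kupffer cell and lymphocyte lists 0 of 5 passed each, and in the erythroid list 0 of 2. The part of these shifts in the ribosomal protein values was not tested.

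**Figure D2:**
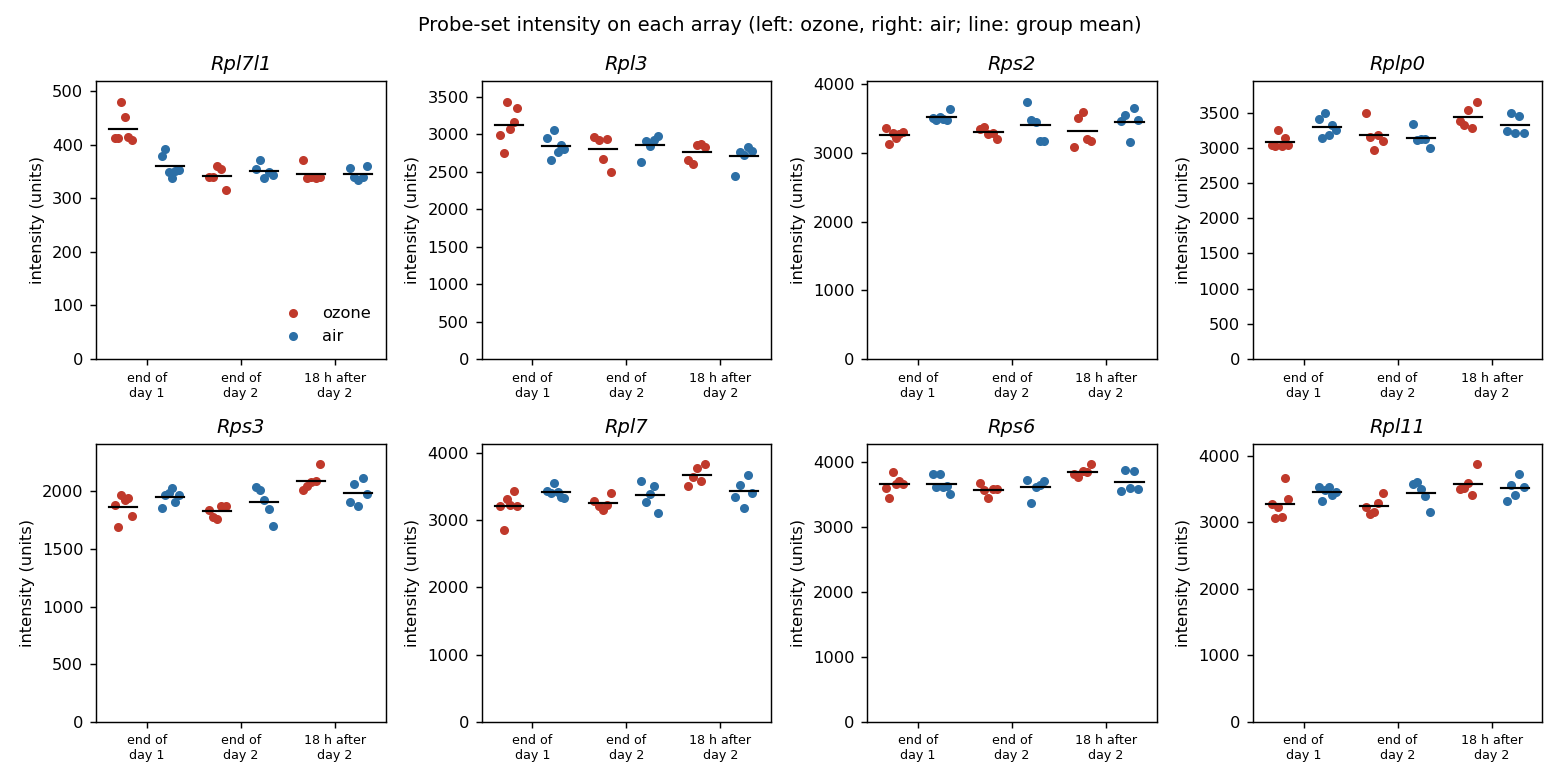
Probe-set intensity (deposited units, axis from 0) of 8 ribosomal protein genes on each of the 32 arrays, with ozone in red left of air in blue at each harvest time and the group mean as a line. Rpl7l1 stands above all air arrays in ozone livers of day 1 (409 to 480 units against 337 to 393) and lies at 315 to 361 units on day 2, and Rps3 and Rpl7 are higher in ozone livers at 18 h than at the end of day 2.

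At the end of the second exposure, no ribosomal protein gene passed the test between ozone and air livers. With limma, 0 of 38 members rose and 0 fell, where 0.705% of all genes passed (0.464% higher and 0.241% lower). That background itself rested on single arrays: 82 genes passed, and 1 to 978 with 1 array left out, the 978 without air replicate 5. At an unadjusted p under 0.05 there were 2 of 38 members and 1511 of all 11626 genes. Differences were negative for 28 of 38 members with a median of −0.032, against 49.6% of all genes and a median of 0.00043. The member median was −0.015 without air replicate 1, −0.061 without air replicate 5 and −0.072 without the 4 arrays that lay apart (replicate 5 of both groups here, air replicates 1 and 5 at 18 h). Rpl7l1 measured 339.5, 339, 361, 355 and 315 units in ozone livers and 354, 372, 338, 349 and 343 units in air livers. The groups overlapped and the difference was −0.036 ± 0.046 (adjusted p = 0.896).

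Of the members of day 2, Rpl23a, a protein at the exit of the peptide tunnel, had the smallest p among decreases. It measured 2695, 2621, 2581, 2745 and 2783 units in ozone livers and 3165, 3137, 2968, 2836 and 2492 units in air livers. Every ozone value lay below the air mean, but air replicate 5 was lower than all of them. The difference was −0.12 ± 0.053 (95% interval −0.22 to −0.0077, limma adjusted p = 0.333). Without air replicate 5, the array closest to an ozone group, it was −0.17 (adjusted p = 0.0211). Rpl13a, a large-subunit protein, had the smallest p among increases, at 0.083 ± 0.091 (adjusted p = 0.852).

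At 18 h after the second exposure, again no ribosomal protein gene passed the test between ozone and air livers. With limma 0 members rose and 0 fell, where 1.17% of all genes passed (0.86% higher and 0.31% lower). An unadjusted p under 0.05 was found for 2 members and for 1406 of all 11626 genes. Over all genes 136 passed, and 32 to 411 with 1 array left out, the 411 without air replicate 1. Differences were positive for 23 of 38 members with a median of 0.021, against 60.6% of all genes and a median of 0.015. The member median was negative with array weights (−0.0015) and without air replicate 3 (−0.0035). Rpl23, which lies at the interface of the subunits, measured 3087, 3101, 3079, 2964 and 3432 units in ozone livers and 2869, 2992, 2819, 3055 and 2814 units in air livers. All 5 ozone values lay above the air mean and the groups overlapped (0.10 ± 0.043, 95% interval 0.017 to 0.19, adjusted p = 0.275). Rps9, a small-subunit protein, had 5 of 5 ozone values below the air mean (−0.073 ± 0.044, adjusted p = 0.545). The mean of 5 Kupffer cell markers lay at 8.49 to 8.92 in these ozone livers and 8.94 to 9.16 in the air livers on the log2 scale, with 0 of 5 past the threshold. The endothelial marker Stab2 was higher (0.28 ± 0.069, adjusted p = 0.0334). The part of either in these values was not tested.

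The change of the ozone effect from day 1 to day 2 was tested directly. It passed for Rpl7l1 alone among 38 members (−0.28 ± 0.062, limma adjusted p = 0.00831), where 5.09% of all genes passed (3.13% higher and 1.96% lower). In the second probe set of the gene it was −0.15 ± 0.067 (adjusted p = 0.260). For Rpl3 it was −0.16 ± 0.076 (adjusted p = 0.220), so a difference between the 2 days was not shown for that gene. Rpl5, a binding partner of 5S ribosomal RNA, had the smallest p among increases (0.10 ± 0.054, adjusted p = 0.281). From day 2 to 18 h, 0 members changed in their ozone effect, where 0.0086% of all genes passed. An unadjusted p under 0.05 was found for 1010 of all 11626 genes and for 1 member. That member was Rpl7 (0.15 ± 0.063, adjusted p = 0.505), with 0.050 to 0.18 over 13 alternative settings. On the negative side, Rpl21, a large-subunit protein, had the smallest p (−0.079 ± 0.15, adjusted p = 0.959).

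Levels in ozone livers were also compared between harvest times. Clock time, handling and age move with harvest time, in ozone and air livers alike, and cannot be told apart from it. From the end of day 1 to the end of day 2, Rpl7l1 fell by 0.32 ± 0.044 (adjusted p = 2.56e-05), to 315 to 361 units on day 2 against 409 to 480 on day 1, without overlap. Its second probe set fell as well (−0.18 ± 0.047, adjusted p = 0.0101 with every probe set tested singly). Rpl3 fell by 0.16 ± 0.054 (adjusted p = 0.0448), with all 5 values of day 2 (2957, 2926, 2665, 2931 and 2502 units) below the mean of day 1. The Rpl3 call was lost in 6 of 11 fits without 1 array (day 1 replicates 3, 4, 5 and 6, day 2 replicates 3 and 5), with an adjusted p up to 0.193. These 2 of 38 members compare with 14.5% of all genes passing (8.47% higher and 6.03% lower). Differences were negative for 20 of 38 members, with a median of −0.0069, which was 0.010 without day 1 replicate 5 and 0.0012 for the 35 members other than paralogs. Over all genes 46.1% were negative, with a median of 0.0066. Rpl5 had the smallest p among increases (0.077 ± 0.038, adjusted p = 0.197).

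Between the end of day 2 and 18 h later, nearly all ribosomal protein genes lay higher in ozone livers, most of them by less than the test could call. The difference was positive for 37 of 38 members, all but Rpl3, with a median of 0.089 on the log2 scale, an increase of 6.38%, against a median of 0.0089 over all genes, of which 44.2% were negative. With limma 4 members rose (Rps3, Rpl7, Rps6 and Rpl11) and 0 fell. Of all genes, 11.3% passed (7.1% higher and 4.16% lower), so the share of members past the threshold was near that background. Members varied together from array to array within groups (median pairwise correlation 0.49), so the 37 are not separate observations. Their common direction was not tested. An unadjusted p under 0.05 was found for 16 of 38 members and for 2723 of all 11626 genes. Small-subunit genes were positive in 10 of 10 and large-subunit genes in 23 of 24. The 3 paralogs had a median of 0.014. The comparison shares its day 2 arrays with the ozone and air comparison of day 2, whose own member median was −0.032.

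Rps3, a small-subunit protein at the message entry channel, measured 2013, 2045, 2082, 2092 and 2235 units in ozone livers at 18 h and 1841, 1775, 1764, 1876 and 1876 units at the end of day 2. All values at 18 h were above all values of day 2 (0.19 ± 0.048, n = 5 and 5, limma adjusted p = 0.00819). Rpl7, an RNA-binding protein of the large subunit, measured 3516, 3648, 3779, 3585 and 3833 units at 18 h and 3284, 3216, 3149.5, 3226 and 3405 units on day 2, also without overlap (0.17 ± 0.044, adjusted p = 0.0111). Its second, dimmer probe set did not move this way (−0.034 ± 0.046, adjusted p = 0.865), and the mean of both probe sets gave 0.069, which missed the threshold. The Rps3 and Rpl7 calls passed in all fits without 1 array (highest adjusted p 0.0307 and 0.0405).

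Rps6 measured 3809.7, 3769, 3852, 3843 and 3957 units in ozone livers at 18 h and 3668, 3558, 3446, 3571 and 3580.3 units on day 2, without overlap (0.11 ± 0.035, adjusted p = 0.0403). Rpl11, which with Rpl5 binds 5S ribosomal RNA and the p53 regulator Mdm2, measured 3495, 3510.4, 3589, 3408 and 3871 units at 18 h and 3234, 3117, 3147, 3285 and 3437 units on day 2. Its groups overlapped through day 2 replicate 5 (0.14 ± 0.046, adjusted p = 0.0445). The Rps6 call was lost in 7 of 10 fits without 1 array (day 2 replicates 2, 3 and 4 and 18 h replicates 1, 3, 4 and 5; adjusted p up to 0.123). The Rpl11 call was lost in 8 of 10 (day 2 replicates 1 to 4 and 18 h replicates 1, 2, 3 and 5; up to 0.150). Without 18 h replicate 5, the array with the high actin ratio and the highest member levels of its group, 2 members passed and the median was 0.075.

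In air livers the same 18 h showed 0 of 38 members past the threshold, where 0.12% of all genes passed. An unadjusted p under 0.05 was found for 1 member and for 1094 of all 11626 genes. Differences were positive for 31 of 38 members with a median of 0.036, against 46.9% of all genes and a median of −0.0040. The member median was 0.0061 without day 2 replicate 5 and 0.014 without 18 h replicate 4, and 0.058 and 0.059 without day 2 replicate 1 and 18 h replicate 3. Rpl6, a large-subunit protein, had the smallest p among increases (0.091 ± 0.040, adjusted p = 0.449) and Rpl3 among decreases (−0.077 ± 0.056, adjusted p = 0.752). The difference between the ozone and the air interval is the change of the ozone effect given above, in which 0 members passed, 33 of 38 were positive, against 57.5% of all genes, and the median was 0.042. No member's test showed a rise particular to ozone livers, and the shared direction was not tested. From day 1 to day 2, air livers had 0 of 38 members past the threshold, where 0.0086% of all genes passed. Their differences were negative for 33 of 38 with a median of −0.041, which was −0.011 without day 2 replicate 5 and −0.065 without day 2 replicate 1. Over all genes 44.9% were negative, with a median of 0.0069. Of each direction, the large-subunit genes Rpl18 (0.055 ± 0.050, adjusted p = 0.847) and Rpl4 (−0.10 ± 0.045, adjusted p = 0.727) had the smallest p. An unadjusted p under 0.05 was found for 1 member and for 774 of all 11626 genes.

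**Figure D3:**
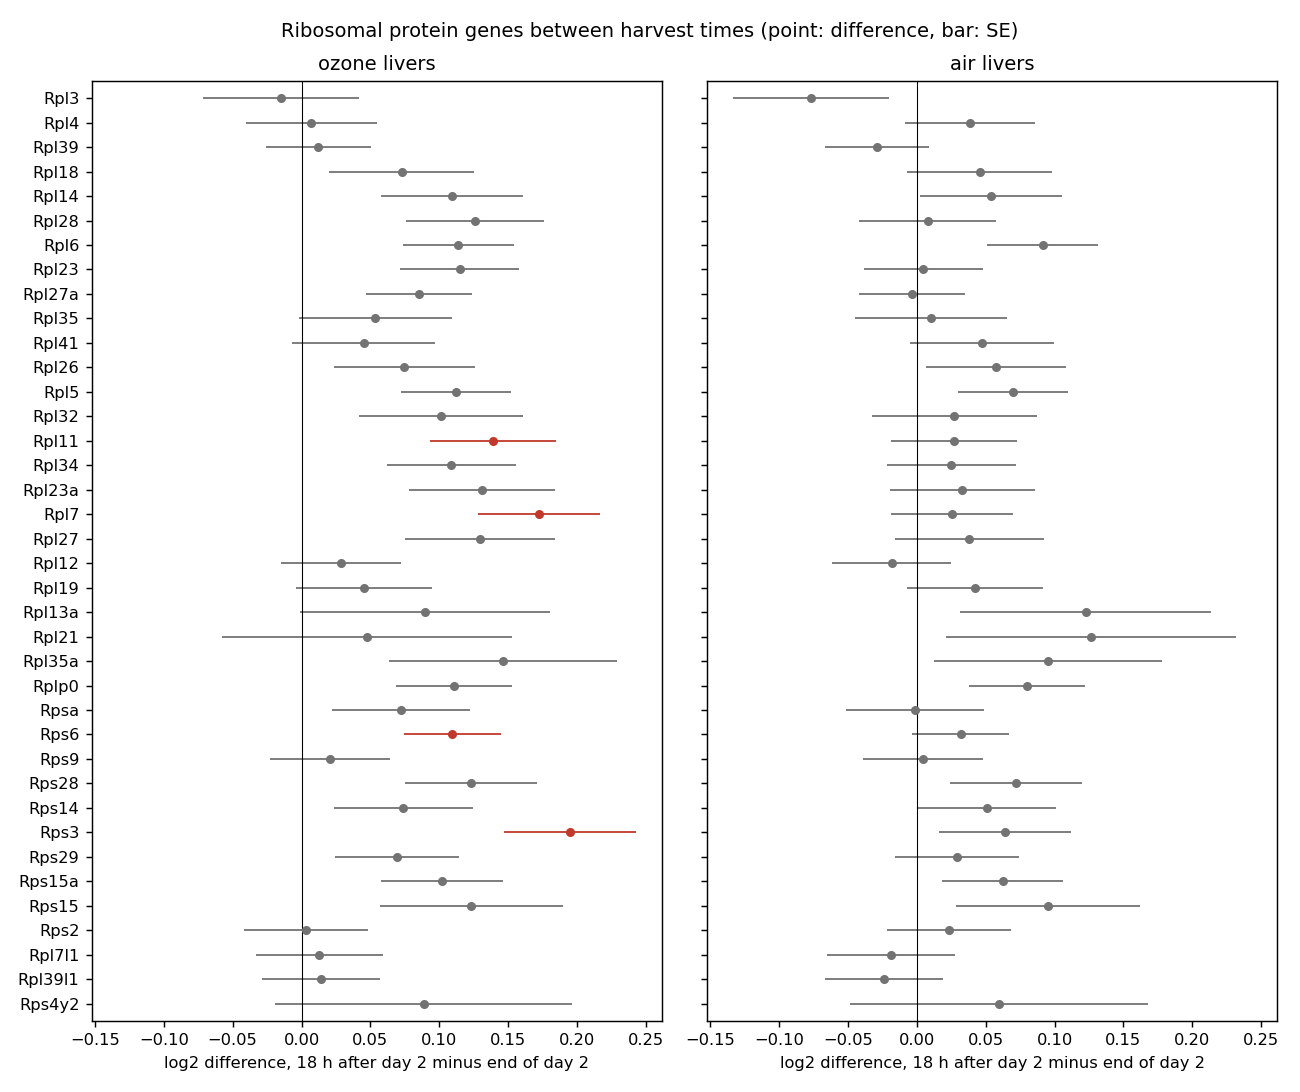
Log2 difference, 18 h after day 2 minus end of day 2, of the 38 ribosomal protein genes tested (rows) in ozone livers (left) and air livers (right); points are differences, bars are standard errors and red points passed an adjusted p of 0.05. In ozone livers 37 of 38 points lie right of 0 and 4 are red, and in air livers 31 lie right of 0 and 0 are red.

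The ribosomal protein genes varied together from array to array within a group. With group means removed, the correlation across the 32 arrays had a median of 0.49 over 703 pairs of members, against 0.029 over pairs of all genes tested, and 613 pairs of members were positive. These arrays share a platform and a scaling, and bright probe sets may share technical variation as well. Counts of members by direction are therefore not counts of separate observations. Rpl34 followed the rest most closely (median r with the other members 0.71). Lowest were Rpl7l1 (−0.11), Rpl39l1 (−0.014), Rpsa (0.050) and Rps4y2 (0.12). These genes were picked out after their values were seen, and no test was made of the difference. The within-group SD of a member was 0.048 to 0.18 on the log2 scale with a median of 0.071, and that of all genes 0.079. As the median deviation of the 38 members from their means over all arrays, single arrays lay between −0.13 (day 1 ozone replicate 2) and 0.12 (18 h air replicate 4). On day 1 the ozone arrays spread from −0.13 to 0.048 and the air arrays from −0.013 to 0.061. On day 2 they spread from −0.084 to −0.023 and from −0.11 to 0.070, and at 18 h from −0.00034 to 0.10 and from −0.064 to 0.12. At each harvest time the groups overlapped. Day 1 ozone replicate 2 decided part of the first day's shift: without it the member median was −0.044, against −0.067 with it.

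**Figure D4:**
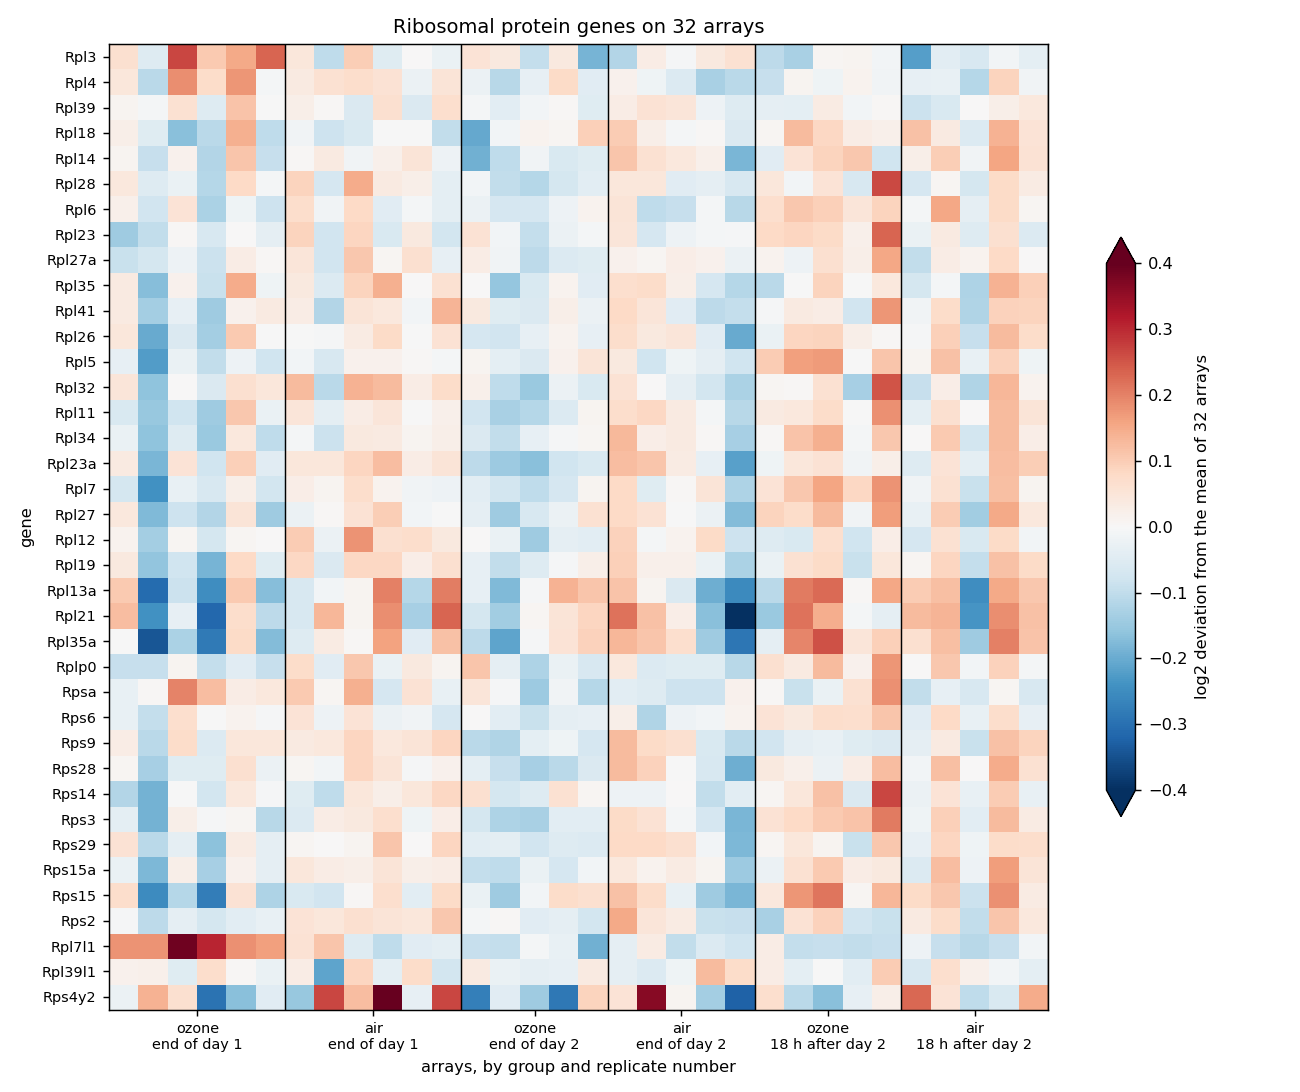
Log2 deviation of each of the 38 ribosomal protein genes tested (rows) from its mean over 32 arrays (columns, grouped by exposure and harvest time), with red above and blue below the mean. Columns tend to have 1 colour over most rows, as in day 1 ozone replicate 2 (blue) and 18 h air replicate 4 (red), while Rpl7l1 departs from the rest in day 1 ozone livers.

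Apart from Rpl7l1, the paralogs were dim. Rpl3l, a striated muscle form in other mammals, and Rpl26l1 were not tested, with group medians of 111 to 115 and 117 to 123 units. Rpl39l1 and Rps4y2 passed the filter with mean log2 levels of 7.22 and 7.59, and their differences of day 1 (0.028 ± 0.039 and the value given above) did not pass. The parent genes Rpl26 (−0.068 ± 0.046, adjusted p = 0.299) and Rpl39 (0.013 ± 0.035, adjusted p = 0.814) did not pass on day 1 either. Rpl7l1 was thus the only paralog past the threshold in any of the 3 comparisons of ozone with air. The members with C and 4 pyrimidines at their annotated start had a median difference on day 1 of −0.071 over 10 genes, and tested members without it and other than paralogs had −0.060 over 19.

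The 41 probe sets shared by several genes added symbols that the single-gene sets lack, such as Rps3a, Rps4x, Rpl10 and Rpl22, each together with pseudogenes or copies. On day 1, 38 of these 41 lay lower in ozone livers (median −0.058) and 1, of Rps4x and a copy, fell past the threshold (−0.13 ± 0.045, adjusted p = 0.0289 with every probe set tested singly). Of the 11626 genes tested, 48.3% lay lower there (median 0.0045) and 16.4% passed as lower. Between the end of day 2 and 18 h in ozone livers, 39 of 41 lay higher (median 0.074) and 1, of Rpl10 and a copy, rose (0.14 ± 0.044, adjusted p = 0.0486). Of the genes tested, 55.8% lay higher there (median 0.0089) and 7.1% passed as higher. Which of the joined genes gave the signal cannot be told from the shared probe sets.

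Genes that build ribosomes differed in the other direction on day 1. Of 33 tested genes of ribosome biogenesis, 16 rose and 0 fell in ozone livers (median 0.12), where 13.1% of all genes rose and 16.4% fell. Bop1, a factor of large-subunit ribosomal RNA processing, measured 264 to 305 units (0.28 ± 0.036, adjusted p = 7.06e-07) and Nolc1, a chaperone of small nucleolar particles, 238 to 277 units (0.28 ± 0.036, adjusted p = 8.37e-07). In air livers they measured 226 to 250 and 200 to 216 units, so that both pairs of groups were apart. On day 2, 0 of 33 passed (median 0.048), against 0.705% of all genes. At an unadjusted p under 0.05 there were 5 of the 33 and 1511 of all 11626 genes. Ncl (0.32 ± 0.095, adjusted p = 0.0851) and Bop1 (0.13 ± 0.039, adjusted p = 0.0947) were nearest. At 18 h, 1 of 33 rose, where 0.86% of all genes rose: Polr1d, a subunit of RNA polymerases I and III (0.27 ± 0.069, adjusted p = 0.0414). Polr1d was highest on ozone replicate 5 (744 units, against 607 to 707 on the other ozone arrays), the array with the high actin ratio. Mrto4 came next (0.072 ± 0.033, adjusted p = 0.347). In ozone livers 10 of the 33 fell from the end of day 1 to the end of day 2 and 0 rose, where 6.03% of all genes fell and 8.47% rose.

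The decline of the effect on biogenesis genes from day 1 to day 2 passed for 4 of 33 genes, where 1.96% of all genes passed as lower. The 4 genes are named here after their values were seen. These were Gnl3, known as nucleostemin (−0.50 ± 0.096, adjusted p = 0.00428), Nop58, a core protein of box C/D particles (−0.44 ± 0.11, adjusted p = 0.0169), Tsr1, a factor of small-subunit maturation (−0.37 ± 0.088, adjusted p = 0.0143), and Nolc1 (−0.21 ± 0.053, adjusted p = 0.0199). Gnl3 measured 802 to 984 units in ozone livers of day 1 against 598 to 719.9 in air livers, and 659, 616, 779, 618 and 647 units in ozone livers of day 2 against 711, 654, 724, 698 and 701 in air livers. The groups were apart on day 1 and overlapped on day 2. Per array, the median deviation of the 33 genes on day 1 was −0.016 to 0.14 in ozone livers and −0.12 to −0.0055 in air livers.

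**Figure D5:**
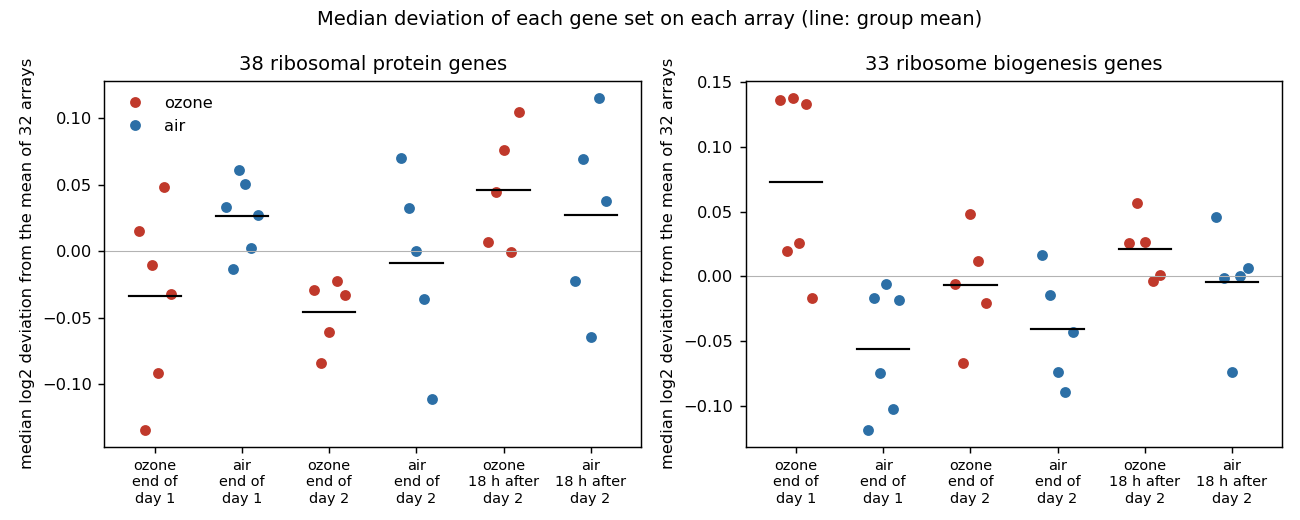
Median log2 deviation from the mean of 32 arrays on each array, for the 38 ribosomal protein genes tested (left) and the 33 ribosome biogenesis genes tested (right), with ozone in red left of air in blue at each harvest time and lines at group means. On day 1 the ribosomal protein medians are −0.13 to 0.048 in ozone livers and −0.013 to 0.061 in air livers, and the biogenesis medians are −0.016 to 0.14 in ozone livers and −0.12 to −0.0055 in air livers.

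Of 18 translation factors and other TOP messages listed, 11 were tested. On day 1 none passed (0 of 11, against 29.5% of all genes). At an unadjusted p under 0.05 there were 3 of the 11 and 4486 of all 11626 genes. The list median was −0.014. Eif3h (−0.10 ± 0.045, adjusted p = 0.0881) and Eef1g (−0.098 ± 0.044, adjusted p = 0.0986) were nearest. On day 2 again 0 of 11 passed (median 0.086), against 0.705% of all genes. At an unadjusted p under 0.05 there were 5 of the 11 and 1511 of all 11626 genes. Naca (0.18 ± 0.052, adjusted p = 0.0734) and Eif4b (0.22 ± 0.065, adjusted p = 0.0870) were nearest. At 18 h, 2 of 11 rose, where 0.86% of all genes rose. These were Eif4b, the helicase cofactor that S6 kinases phosphorylate (0.31 ± 0.065, adjusted p = 0.0168), and Eef1d, an exchange factor of elongation (0.25 ± 0.055, adjusted p = 0.0218). Eef1d was highest on ozone replicate 5 (1165 units, against 946 to 1010 on the other ozone arrays), the array with the high actin ratio. Eif4b measured 743, 819, 815, 809 and 802 units in ozone livers and 740, 680, 569, 661 and 572 units in air livers, just without overlap. The ozone effect on Eif4b (0.31 ± 0.088, adjusted p = 0.0319) and Eif3h (0.22 ± 0.067, adjusted p = 0.0449) was higher on day 2 than on day 1. These are 2 of 11 genes, where 3.13% of all genes passed as higher.

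Of 20 genes that signal growth to translation, 17 were tested. On day 1, 1 rose and 3 fell, a smaller share than the 29.5% of all genes that passed. Myc, a transcription factor that drives ribosome synthesis, fell (−0.61 ± 0.17, adjusted p = 0.00692), as did Sesn1, an inhibitor of mTORC1 (−0.29 ± 0.081, adjusted p = 0.00699), and Rheb, its activator (−0.13 ± 0.048, adjusted p = 0.0344), while Cnbp, which binds TOP messages, rose (0.12 ± 0.038, adjusted p = 0.0183). Myc measured 114 to 141 units in ozone livers and 170 to 271 in air livers without overlap. On day 2, 0 of 17 passed (3 unadjusted), against 0.705% of all 11626 genes (1511 unadjusted). Eif4ebp2 (0.22 ± 0.069, adjusted p = 0.101) and Sesn2 (0.29 ± 0.13, adjusted p = 0.317) were nearest. At 18 h, 0 of 17 passed (2 unadjusted), against 1.17% of all 11626 genes (1406 unadjusted). Cnbp (0.14 ± 0.041, adjusted p = 0.0799) and Rheb (0.14 ± 0.053, adjusted p = 0.194) were nearest.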

How the data were processed

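Total liver RNA was measured on 32 single-colour Affymetrix arrays, grouped by their titles. The deposited values are linear probe-set intensities, which the authors obtained with PLIER and Affymetrix Expression Console, going by the submitters' processing notes. Those notes name no version, background correction or scaling. Intensities ran from 30.5 to 15558, and background signal remains in them, which understates fold changes of dim genes. No further scaling was applied.

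Left out were 97 control probe sets, 11407 that name no gene and 572 that name several, then those under the 25th percentile of mean log2 level. The deposited intensities were put on a log2(intensity + 16) scale, on which every difference is given. The brightest probe set stood for a gene. Differences were tested with limma 3.58.1 in R 4.3.3 (lmFit, eBayes with intensity trend) in 1 model of 6 group means over all arrays, without a block. Two-sided p-values were adjusted (Benjamini-Hochberg) over 11626 genes, and 0.05 was the threshold, unless every probe set was tested singly. Errors of differences are limma's SE. Procedures were tested on simulated data.

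Named were the members with the smallest p past the threshold (up to 8 per direction between ozone and air, up to 4 otherwise), or else the 1 nearest member, the stalk proteins, Rpsa, Rps6, paralogs with their parents, and 2 genes per pathway list and ozone comparison. Members and lists were chosen with earlier results of these data known. The labels do not say that equal replicate numbers pair the arrays, and no pairing was used. Correlations of same-numbered deviations were −0.40 to 0.017 on day 1, −0.58 to −0.021 on day 2 and −0.33 to 0.26 at 18 h. At 18 h, 2 of 5 pairs were over 0.1. Such correlations cannot show whether equal numbers mark a shared day or batch. Alternatives covered offset, scaling, filter, probe-set choice, variance trend, array weights, the replicate block, the groups fitted and left-out arrays. Sequences came from the RefSeq promoter table (GRCr8). Sequences were read in Python 3.11.15 with pandas 2.3.3, and figures drawn with matplotlib 3.10.9.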

Additional observations from a re-analysis of the deposited data

Results flagged for a closer look

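The ozone effect differed between day 2 and day 1, by limma's test of that difference, for 1 of 38 ribosomal protein genes and 6 of 61 genes of the pathway lists, where 5.09% of all genes passed. It was lower on day 2 for Rpl7l1 (−0.28, adjusted p = 0.00831), Gnl3 (−0.50, adjusted p = 0.00428), Nop58 (−0.44, adjusted p = 0.0169), Tsr1 (−0.37, adjusted p = 0.0143) and Nolc1 (−0.21, adjusted p = 0.0199). It was higher on day 2 for Eif4b (0.31, adjusted p = 0.0319) and Eif3h (0.22, adjusted p = 0.0449).

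Single arrays stood far from the rest of their group in 9 of 138 groups of values looked at, and chance alone gives about 1 in 20. On the log2 scale, Rpl7l1 was high on 18 h ozone replicate 1 (8.60, nearest 8.47). Rps2 was high on day 1 air replicate 6 (11.83, nearest 11.79). Rpl7 was low on day 1 ozone replicate 2 (11.49, nearest 11.66). Rpl3 was low on 18 h air replicate 1 (11.27, nearest 11.42). Rpl13a (11.41, nearest 11.76) and Rpl21 (11.06, nearest 11.41) were both low on 18 h air replicate 3. Rpl5 was low on day 1 air replicate 2 (11.87, nearest 11.92). Rpl4 was low on day 1 air replicate 5 (11.44, nearest 11.50) and on 18 h ozone replicate 1 (11.37, nearest 11.45).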

How the results depend on the processing

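The member median of ozone minus air on day 1 was negative in all 13 alternative settings (−0.086 to −0.039), and that of 18 h minus day 2 in ozone livers was positive in all 13 (0.080 to 0.10). The count of members higher on day 1 (2) was 1 with an offset of 64, median centring, no filter, probe sets singly, array weights, the replicate block, without the 2 arrays of low nonspecific signal and with only the groups compared. Over all genes 1612 were higher with array weights and 1314 without those 2 arrays, against 1521. The count of members lower on day 1 (1) was 2 with quantile scaling, without the trend, without 4 arrays that lay apart (day 2 air and ozone replicate 5, 18 h air replicates 1 and 5) and without the 2 arrays of low nonspecific signal, 3 with median centring, 6 with array weights and 0 with the replicate block. Over all genes 2063 were lower with array weights and 1792 with the replicate block, against 1909. On day 2 the count of members lower (0) was 5 with array weights and 2 without the 4 arrays. Over all genes 964 and 824 were lower in these settings, against 28. Array weights gave 1 member higher for the change of effect on day 2 and for 18 h minus day 2 in air livers, against 0. Over all genes they gave 552 and 440 higher, against 364 and 10. From day 1 to day 2 in ozone livers the count of members lower (2) was 5 with quantile scaling and 1 without the filter, with the mean of probe sets, array weights, the replicate block, either set of arrays left out or only the groups compared. Over all genes 940 were lower with quantile scaling and 510 to 796 in the other settings named, against 701. From day 2 to 18 h in ozone livers the count of members higher (4) was 9 with quantile scaling, 2 with median centring, 11 with array weights, 2 with the replicate block, 10 without the 4 arrays and 2 with only the groups compared. Over all genes, 828, 659, 1615, 691, 1417 and 704 were higher in these settings, in the same order, against 826. Leaving out 1 array gave 1 to 2 members higher and 0 to 4 lower on day 1, 0 to 1 lower on day 2, 1 to 2 lower from day 1 to day 2 and 2 to 6 higher from day 2 to 18 h in ozone livers. Over all genes, day 1 gave 1385 to 1489 higher and 1601 to 2059 lower, and day 2 gave 0 to 498 lower. For the 2 comparisons over time in ozone livers, the ranges over all genes were 413 to 741 lower and 424 to 1193 higher. Rps2 was not among the genes lower with quantile scaling or without the 2 arrays of low nonspecific signal. The labels do not say what equal replicate numbers share, and the block fit is given for completeness. Signs turned for small differences: on day 1 for Rps6 with quantile scaling (0.037), Rpsa with array weights (−0.017) and without the 2 arrays (−0.00777), and Rpl39l1 with array weights (−0.022), and for Rpl21 in the change from day 2 to 18 h without the 4 arrays (0.092). With 1 array left out, Rps6 ranged from −0.020 to 0.012, Rpsa from −0.0022 to 0.047, Rpl39 from −0.0057 to 0.028, Rpl39l1 from −0.0094 to 0.050, Rpl21 from −0.15 to 0.029 and Rpl3 from day 2 to 18 h in ozone livers from −0.054 to 0.0061. The cause of these shifts was not tested. Ribosome biogenesis genes higher on day 1 numbered 14 to 19 over the settings, an alternative chosen after seeing the data. Members with few-percent differences lie within reach of scaling and weighting choices, and dim probe sets near the nonspecific signal have understated folds.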
